A study of Mus musculus with 4 samples.

Results

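The Pim kinases and the Tribbles pseudokinases were followed through Foxp1 chromatin immunoprecipitation sequencing (ChIP-seq) of mouse mammary epithelium. The 6 genes Pim1, Pim2, Pim3, Trib1, Trib2 and Trib3 were selected by symbol from the 24548 genes of the deposited count table, and each of them had enough reads to be compared. They were put together with the ChIP-over-input ratios of Trib1 and Pim1 in basal cells already known, so the ratios below describe the genes and test nothing. The Pim genes encode serine/threonine kinases that lack a regulatory domain and are active once made, so that their activity follows the amount of protein. Pim1 is switched on by cytokine receptors through JAK kinases and STAT factors, and Pim kinases phosphorylate regulators of survival, the cell cycle and translation, such as Bad and Cdkn1b. The Tribbles proteins keep a kinase fold with little or no catalytic activity and act as scaffolds that bring the ubiquitin ligase Cop1 to targets such as the transcription factor Cebpa. Both families belong to the same branch of the kinase tree, the CAMK group.

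Foxp1 is a forkhead transcription factor. Each of 4 groups held 1 library, namely Foxp1 ChIP from basal cells, input DNA from basal cells, Foxp1 ChIP from luminal cells and input DNA from luminal cells. Input DNA is chromatin taken without an antibody. All cells came from untreated wild-type female mice aged 10 to 12 weeks of the strain FVB/N (written FBV/N in the sample labels), and the sources used here do not say whether animals were pooled. Basal (myoepithelial) cells contract around the ducts, and luminal cells face their lumen. The counted regions held between 3080114 and 4201459 reads a library, and the median compared gene had 136 to 192 reads. With no replicate there was no spread between animals to set a difference against and no p-value was computed. Each interval below is an exact 99% interval that covers counting error only, and reads may include PCR copies. A gene was called higher or lower where the ratio of scaled counts reached 1.5-fold in that direction and the interval excluded 1. No control antibody library was used here, so a ratio over input does not separate Foxp1 binding from recovery that does not need the antibody. The labels' cell types were set beside marker genes in the inputs. There 7 of 7 basal marker genes had more scaled reads in basal input and 2 of 8 luminal marker genes did. Over all 23128 genes compared, 11536 did. Between the inputs 1 basal marker, Krt14, was called higher, 14.3% of that list beside 0.709% of all genes. There 1 luminal marker, Kit, was called lower, 12.5% of that list beside 0.463% of all genes. Among 8 stromal and blood marker genes 3 had more in basal input, and Col3a1, at log2 0.52, stood above every basal marker but Krt14. The medians of the basal, luminal and stromal lists were log2 0.30, -0.26 and -0.04 in basal over luminal input.

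What a count refers to was read from the input libraries. Among genes with 1 annotated start, the median of reads summed over both inputs was 356 where the nearest start of another counted gene with a RefSeq promoter window was at least 20000 bp away. It was 326 at 5000 to 6000 bp, 216 at 3000 to 4000 bp, 114 at 2000 to 3000 bp and 56 at 1500 to 2000 bp. At 1000 to 1500 bp it was 27 over 171 genes, and below 1000 bp it was 60 over 1845 genes. Counts were thus lower where starts lay within about 5000 bp of each other, though not lowest at the shortest distances. A counted stretch around each gene's start, with reads in overlapping stretches left out, would lower counts at close starts. Whether it would give the higher median below 1000 bp was not tested. No source used here states the counted region. The start of Trib3 lies 1609 bp from that of the noncoding gene Gm14164, and these 2 genes had 39 and 49 reads over both inputs. Pim2 lies 5938 bp from the start of Slc35a2 and had 313 input reads, while Pim1 with 486, Pim3 with 403 and Trib2 with 402 have no other such start within 20000 bp. Trib1 had 471.

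**Figure D1:**
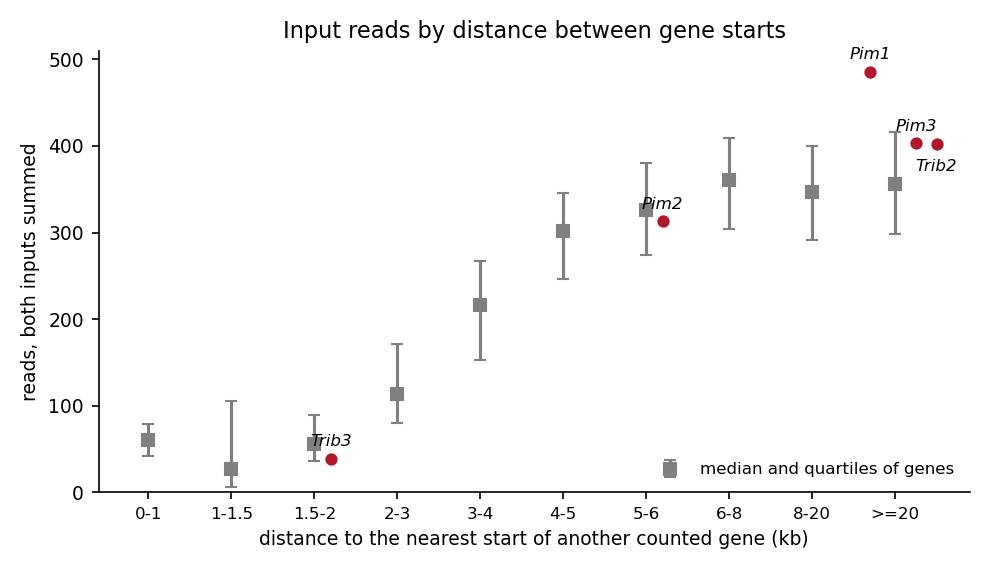
Reads summed over both inputs (vertical axis) by the distance from a gene's start to the nearest start of another counted gene in kb (horizontal axis); grey squares are medians and bars quartiles of genes with 1 listed start, red points are the genes named. Trib3, at 1609 bp from the start of Gm14164, has 39 reads and lies among the genes of the same distance, whose median is 56, whereas Pim1, Pim3 and Trib2 have 402 to 486.

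Among the Pim genes, Pim1 and Pim3 were enriched in basal ChIP and Pim2 was not. Pim1 (Entrez gene 18712, chromosome 17, 29490785 to 29496111, GRCm38) had 644 ChIP and 208 input reads in basal cells and 339 ChIP and 278 input reads in luminal cells. Scaled to RPM, these were 174.7, 66.5, 108.2 and 65.2 in the same order. RPM are reads per 1000000 reads in counted regions, with each library's total first multiplied by its scaling factor (TMM). Both inputs were thus alike and both ChIP libraries stood above them, basal ChIP the most. The ratio was 2.63-fold in basal cells (99% interval 2.14 to 3.25) and 1.66-fold in luminal cells (1.34 to 2.05), and Pim1 was called higher in both.

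Pim3, which encodes a kinase close to Pim1 in sequence and substrates (Entrez gene 223775, chromosome 15, 88862194 to 88865726), had 353 ChIP and 143 input reads in basal cells and 295 ChIP and 260 input reads in luminal cells. Both ChIP libraries were again above their inputs, but here the scaled ChIP reads were nearly equal, 95.8 RPM in basal and 94.2 in luminal cells, and the inputs were not, at 45.7 and 61.0 RPM. The ratio was 2.10-fold in basal cells (1.62 to 2.73) and 1.54-fold in luminal cells (1.24 to 1.93), called higher in both.

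Pim2, a kinase studied mostly in lymphoid cells (Entrez gene 18715, chromosome X, 7878306 to 7883432), had 156 ChIP and 137 input reads in basal cells and 145 ChIP and 176 input reads in luminal cells. Its 4 scaled values lay between 41.3 and 46.3 RPM with overlapping counting intervals. The ratios were 0.966-fold (0.710 to 1.32) in basal and 1.12-fold (log2 interval -0.26 to 0.59) in luminal cells, so a ratio of 1.5-fold lies outside the basal interval and at the edge of the luminal one.

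The starts of these genes differ in sequence. RefSeq windows from 250 bases before to 50 bases after each annotated start were found for 5 of the 6 genes (build GRCm38.p6). Trib1 had none. They are shown for the Pim genes because these include enriched and not enriched genes of 1 family and because Pim1 has a pair of starts of opposite composition. Capitals mark each CG pair, the dinucleotide that CpG islands are rich in.
Pim1, upstream start, plus strand, chr17:29490535-29490834: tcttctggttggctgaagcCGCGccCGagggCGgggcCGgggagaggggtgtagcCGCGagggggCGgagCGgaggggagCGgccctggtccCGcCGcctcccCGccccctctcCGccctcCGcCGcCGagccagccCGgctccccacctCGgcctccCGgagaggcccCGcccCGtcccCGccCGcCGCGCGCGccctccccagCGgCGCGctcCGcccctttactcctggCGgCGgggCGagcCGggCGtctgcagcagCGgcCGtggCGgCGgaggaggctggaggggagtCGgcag
Pim1, downstream start, plus strand, chr17:29492835-29493134: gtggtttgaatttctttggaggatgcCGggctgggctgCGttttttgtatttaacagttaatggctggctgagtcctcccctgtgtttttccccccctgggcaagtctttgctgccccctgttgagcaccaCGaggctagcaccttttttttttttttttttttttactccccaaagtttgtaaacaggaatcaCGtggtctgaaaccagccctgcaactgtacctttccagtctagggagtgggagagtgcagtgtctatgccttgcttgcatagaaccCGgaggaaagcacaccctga
Pim3, plus strand, chr15:88861944-88862243: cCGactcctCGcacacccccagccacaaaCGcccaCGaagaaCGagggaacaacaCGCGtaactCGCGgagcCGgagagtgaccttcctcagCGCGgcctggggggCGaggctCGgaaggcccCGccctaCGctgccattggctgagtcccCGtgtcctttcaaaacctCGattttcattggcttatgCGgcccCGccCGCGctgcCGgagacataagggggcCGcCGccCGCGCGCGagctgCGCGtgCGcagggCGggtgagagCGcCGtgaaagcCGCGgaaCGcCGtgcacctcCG
Pim2, plus strand, chrX:7878056-7878355: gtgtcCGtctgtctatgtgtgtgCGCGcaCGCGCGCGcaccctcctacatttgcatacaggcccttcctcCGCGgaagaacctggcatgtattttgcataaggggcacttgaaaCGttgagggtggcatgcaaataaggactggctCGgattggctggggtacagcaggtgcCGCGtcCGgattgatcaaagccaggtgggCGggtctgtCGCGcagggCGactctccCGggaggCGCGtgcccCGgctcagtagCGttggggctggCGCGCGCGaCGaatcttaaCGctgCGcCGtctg
The upstream Pim1 window was 81.3% G and C with 42 CG pairs, that of Pim3 69.0% with 40 and that of Pim2 62.7% with 31, against medians of 52.7% and 7 over 32851 windows of the same length. The downstream Pim1 window, 2300 bp into the gene, was 49.0% G and C with 5 CG pairs. It alone of the 6 windows found for these genes held the forkhead core TGTTTAC, read on the opposite strand and beginning at position -70 from that start. The site is shown with the core in capitals.
Pim1 forkhead core, plus strand, chr17:29493005-29493031: cccaaagtttGTAAACAggaatcacgt
The core, on either strand, was found in 3.65% of all 32851 windows. Its shorter form TGTTT, which it contains, was in 50.5% of all windows and, among these 6, in the downstream Pim1 window and that of Trib3. Trib1, with no window, could not be searched. None of the 6 windows held the STAT palindrome (TTC and GAA with 3 bases between them) or the AP-1 site TGANTCA. Neither did any hold the ATF4 with C/EBP composite (TGATG and AAT with 1 base between them). These motifs were in 8.30%, 7.81% and 0.965% of all windows. These are matches of letters in short windows and say nothing of binding.

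Among the Tribbles genes, Trib1 and Trib2 were enriched in basal ChIP and Trib3 could not be judged. Trib1, which encodes the scaffold known for directing Cebpa to degradation (Entrez gene 211770, chromosome 15, 59648654 to 59657099), had 541 ChIP and 169 input reads in basal cells and 363 ChIP and 302 input reads in luminal cells. Scaled, these were 146.8, 54.0, 115.9 and 70.8 RPM in the same order, with both ChIP libraries above both inputs and the basal input below the luminal one. The ratio was 2.72-fold in basal cells (2.17 to 3.44) and 1.64-fold in luminal cells (1.33 to 2.01), called higher in both.

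Trib2, a scaffold that, like Trib1, can direct Cebpa to degradation (Entrez gene 217410, chromosome 12, 15791725 to 15816962), had 302 ChIP and 146 input reads in basal cells and 232 ChIP and 256 input reads in luminal cells. Basal ChIP was clearly above basal input, while luminal ChIP and luminal input had counting intervals that overlap. The ratio was 1.76-fold in basal cells (1.35 to 2.30), called higher, and 1.23-fold in luminal cells (0.972 to 1.56), not called. The Trib2 window is shown as that of a called Tribbles gene; it holds none of the 7 motifs searched. Capitals again mark CG pairs.
Trib2, minus strand, chr12:15816736-15817035: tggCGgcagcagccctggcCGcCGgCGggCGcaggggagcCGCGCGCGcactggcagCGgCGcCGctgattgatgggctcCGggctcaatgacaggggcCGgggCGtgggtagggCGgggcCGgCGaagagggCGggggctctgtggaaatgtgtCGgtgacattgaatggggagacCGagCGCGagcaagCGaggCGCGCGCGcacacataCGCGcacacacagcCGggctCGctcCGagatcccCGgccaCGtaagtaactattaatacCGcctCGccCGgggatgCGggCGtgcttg
It was 71.0% G and C with 40 CG pairs, close to that of Pim3. It lies on the minus strand and is printed in the direction of transcription.

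Trib3, a stress-induced scaffold known as a target of the transcription factors Atf4 and Ddit3 and as a binder of Akt (Entrez gene 228775, chromosome 2, 152337425 to 152344060), had 14 ChIP and 18 input reads in basal cells and 12 ChIP and 21 input reads in luminal cells. With so few reads the ratios were 0.660-fold (0.240 to 1.75) in basal and 0.778-fold (0.271 to 2.05) in luminal cells. A ratio as high as that of Pim3 in luminal cells lies inside both intervals, so no difference was detectable at this depth. The Trib3 window held the short CREB and ATF site TGACG at positions -237 and -10 from the start, a site found in 20.8% of all windows.

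**Figure D2:**
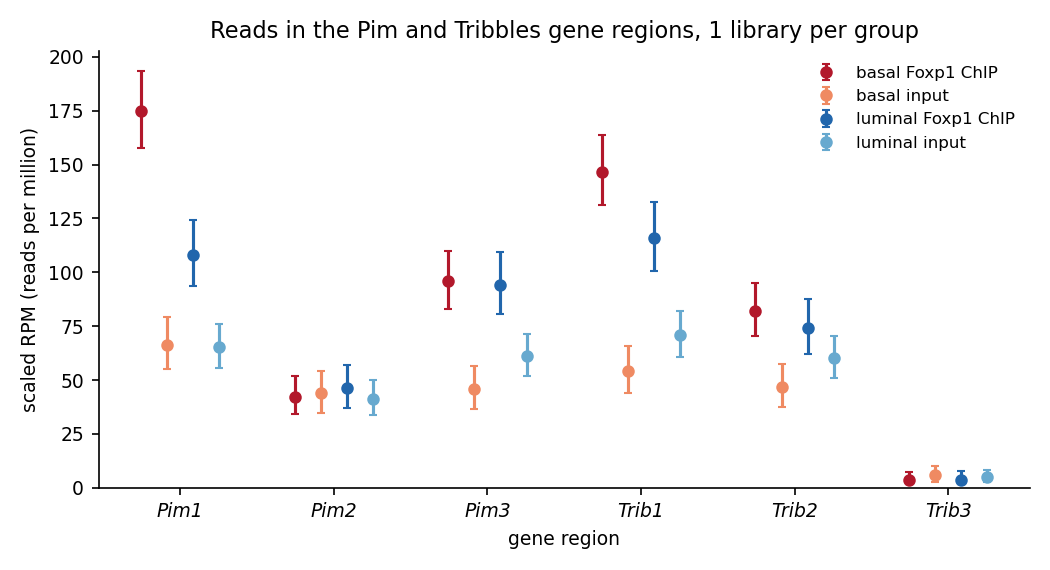
Scaled RPM (vertical axis) for each gene region in the 4 libraries; points are single libraries and bars exact 99% Poisson intervals, counting error only. Basal ChIP is highest at Pim1 with 174.7 and at Trib1 with 146.8, the 4 values of Pim2 lie between 41.3 and 46.3, and those of Trib3 reach at most 5.75.

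In basal cells 4 of the 6 genes were called higher and none lower, where 4.24% of the 23128 genes compared were called higher and 4.06% lower. In luminal cells 3 of the 6 were called higher and none lower, against 1.5% and 2.13% of all genes. Since the genes were chosen on these ratios, nothing is read from those shares. The median log2 ratio of the 6 was 0.94 in basal and 0.46 in luminal cells, beside -0.01 and 0.00 over all genes. In basal cells the order was Trib1, Pim1, Pim3, Trib2, Pim2 and Trib3. Of the 5 neighbouring pairs in it, the interval of the difference excluded 0 for 1, Trib2 over Pim2, at log2 0.86 (0.29 to 1.43). With both inputs summed as a shared background the same 4 and 3 genes were called, beside 3.13% and 1.77% of all genes. With the interval widened by the spread of 1089 olfactory receptor genes, whose variance was 2.29 times that of counting in basal and 2.13 times in luminal cells, they were called too, beside 3.58% and 1.13%. Trib1 and Pim1 differed by log2 0.05 (-0.39 to 0.49) in basal cells. In luminal cells the order was Pim1, Trib1, Pim3, Trib2, Pim2 and Trib3, with no neighbouring pair apart beyond its counting interval.

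Trib1 had the 27th and Pim1 the 35th highest basal ratio of the 23128 genes, and by the lower end of the interval, which favours well-counted genes, they ranked 2 and 3. Pim3 ranked 127, Trib2 409 and Pim2 12422 by ratio. In luminal cells Pim1 ranked 266, Trib1 289, Pim3 468, Trib2 3203 and Pim2 6361. For comparison, the gene of the antibody's target, Foxp1, had a basal ratio of 2.30-fold (1.86 to 2.87) and a luminal one of 1.72-fold (1.38 to 2.15), so that Pim1 and Trib1 lay above it in basal cells and slightly below it in luminal cells, each within the overlap of the intervals.

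**Figure D3:**
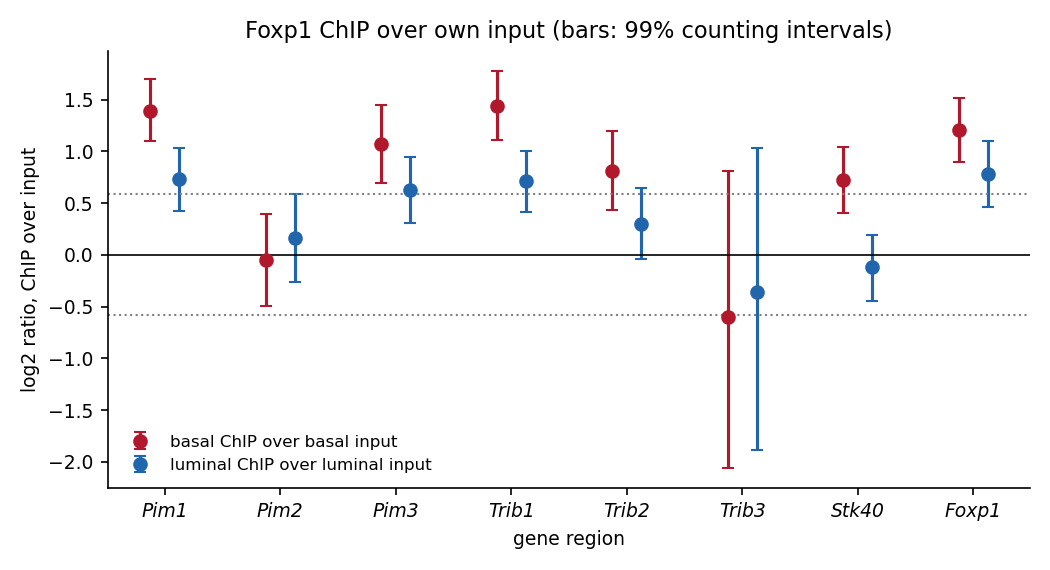
Log2 ratio of ChIP over own input (vertical axis) in basal cells (red) and luminal cells (blue) for the 6 genes, for Stk40 and for Foxp1; bars are 99% counting intervals and dotted lines mark 1.5-fold in either direction. Pim1, Pim3 and Trib1 lie above the upper dotted line in both cell types, Trib2 and Stk40 in basal cells only, and the bars of Trib3 span both dotted lines.

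Likeness to Pim1 and to Trib1 was measured as the distance between genes over 2 log2 ratios, basal and luminal, among 16084 genes with at least 200 reads over both inputs, predicted genes and small RNA genes left out. The gene nearest to Pim1 was Trib1 and the gene nearest to Trib1 was Pim1, at a distance of 0.05. The next for both was Zfp36l1, which encodes a zinc-finger protein that speeds the decay of AU-rich mRNAs, at 0.12 from Pim1 and 0.10 from Trib1, with 539 reads over 162 in basal and 369 over 290 in luminal cells. Chic2 came next, at 0.16 from Pim1 and 0.20 from Trib1, with 442 reads over 159 and 302 over 252. Trib1 and Pim1 were chosen with their basal ratios known, and the distance uses those ratios, so their match partly follows from the choice. The 99% counting interval of Trib1 minus Pim1 was log2 -0.39 to 0.49 in basal cells. That of Pim1 minus Trib1 was -0.40 to 0.44 in luminal cells. The distances listed here are small beside these intervals, so the order of the nearest genes was not resolved. A likeness over 2 ratios from 4 libraries is a description of where these genes lie and no more.

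**Figure D4:**
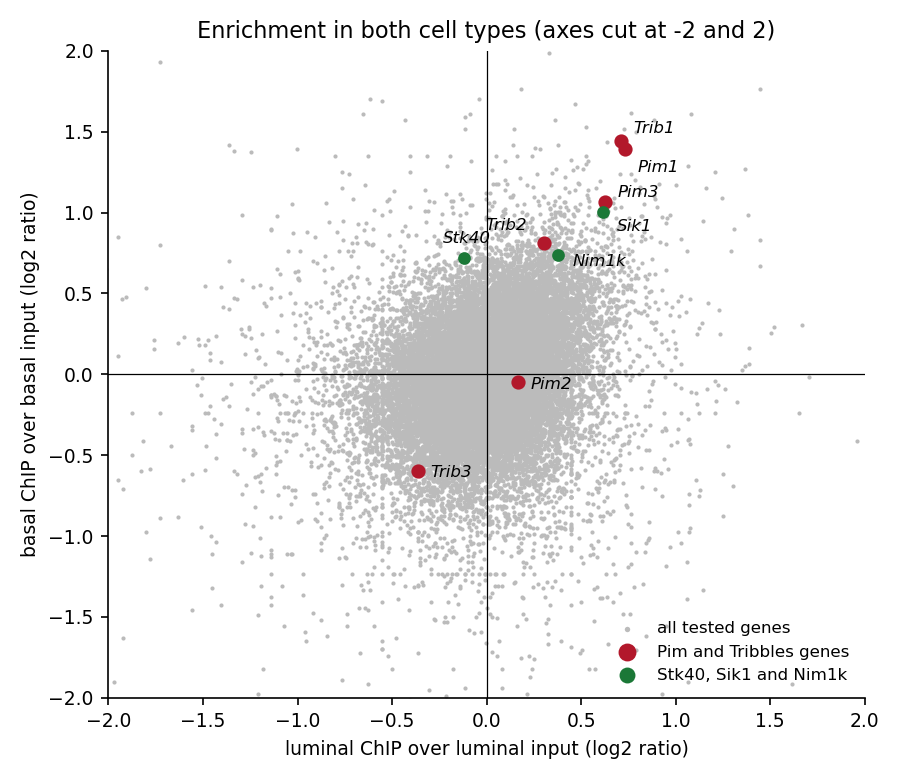
Basal log2 ratio (vertical axis) against luminal log2 ratio (horizontal axis) for the 23128 genes compared (grey; 61 lie outside the range from -2 to 2 and are not drawn), with the Pim and Tribbles genes in red and the CAMK kinases called higher in basal cells in green. Trib1 and Pim1 lie side by side at the upper right, Pim3 lies beside Sik1, Pim2 lies near the centre and Trib3, with few reads, at the lower left.

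How far basal and luminal cells differed was taken as the ratio of the basal to the luminal enrichment. Trib1 differed by log2 0.73 (standard error 0.17) and Pim1 by 0.66 (standard error 0.16), both called higher in basal cells, where 3.72% of all genes were called higher and 4.16% lower. Trib2 differed by 0.51 (99% interval 0.00 to 1.01) and Pim3 by 0.44 (-0.05 to 0.92), neither reaching 1.5-fold. With the widened interval Pim1 and Trib1 were called, beside 0.886% of all genes.

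Marker genes of the cell types moved in the ChIP libraries too. Of 7 basal markers 2 (28.6%) were called higher in basal cells, Krt14 at log2 0.86 and Krt5 at 0.79, with a list median of 0.54. None was called in luminal cells. All genes were called higher at 4.24% in basal cells, 1.5% in luminal cells and 3.72% in the difference. In the basal-luminal difference 4 of the 7 (57.1%) were called higher, the same direction as Pim1 and Trib1, namely Krt5 (log2 1.24), Krt14 (0.78), Cnn1 (0.73) and Oxtr (0.63), with a list median of 0.63. Of 8 luminal markers 2 (25%) were called higher in luminal cells, Gata3 at log2 1.01 and Krt8 at 0.66, none in basal cells and none in the difference. Of 8 stromal and blood markers none was called in any of these, with medians of -0.15 in basal and -0.10 in luminal cells. A count of 0 among 7 or 8 genes is near the shares of all genes. The part of the markers' cell types in the differences of Pim1 and Trib1 was not tested. Pim2 (-0.22, interval -0.82 to 0.39) and Trib3 (-0.25, interval -2.11 to 1.61) were not called.

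The ratio of ratios joins a difference between the ChIP libraries and one between the inputs, given here apart. Between the ChIP libraries alone Pim1 stood at 1.61-fold in basal over luminal cells (1.36 to 1.93) and was the 1 gene of the 6 called, where 4.05% of all genes were called higher and 3.98% lower. Its inputs stood at 1.02-fold (log2 interval -0.32 to 0.37). Trib1 stood at 1.27-fold between the ChIP libraries (1.06 to 1.51) and at 0.762-fold between the inputs (0.591 to 0.979). The intervals of Pim1 and Trib1 overlap for the ChIP libraries and for the inputs. Pim3 stood at 1.02-fold (0.828 to 1.25) between the ChIP libraries and at 0.749-fold (0.568 to 0.982) between the inputs, and Trib2 at 1.11-fold (0.881 to 1.39) and 0.777-fold (0.590 to 1.02). None of the 6 was called between the inputs, where 0.709% of all genes were called higher in basal and 0.463% in luminal cells. With both inputs summed as a shared background the difference of Pim1 was log2 0.69 and still called. With the same background that of Trib1 was 0.34 and not called, and that of Pim3 was 0.02. A shared background cancels, so these are the ratios of the ChIP libraries alone.

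For each of the 6 the neighbouring counted gene on either side was examined, in order of lower coordinate. At Trib2 the neighbour on the higher side in this order was the microRNA gene Mir6387, which lies inside Trib2. The flanking gene on that side, where the start of Trib2 lies, was thus not examined. Distances in this paragraph are gaps between annotated gene ends, not between starts. Among starts with a promoter window, the nearest to Pim1 is that of Tmem217 at 56508 bp. The nearest to Pim3 is that of Creld2 at 42548 bp. Leaving out Mir6387, none of the 11 other neighbouring genes was called higher in either cell type. With 4.24% and 1.5% of all genes called higher, a count of 0 among 11 genes is near the background. Their basal log2 ratios lay between -0.85 and 0.31. Fgd2, 111249 bp from Pim1, had 99 reads over 123 in basal and 88 over 196 in luminal cells, and Tmem217, on the other side at 23031 bp, 23 over 33 and 24 over 66. Both were called lower in luminal cells, at 0.611-fold (0.432 to 0.852) and 0.495-fold (0.252 to 0.917). They were the 2 of the 11 called lower there, beside 2.13% of all genes. None was called lower in basal cells, beside 4.06%. Any bearing on Pim1 was not tested. Beside Trib1, Nsmce2, a subunit of the SMC5/6 complex, had 38 reads over 39 in basal cells, and the predicted gene Gm19510 had 245 over 173, a ratio of 1.20-fold (0.928 to 1.56). Ttll8, a tubulin-modifying enzyme gene 24051 bp from Pim3, had 148 over 130. Otud5 and Slc35a2, on either side of Pim2, had 184 over 138 and 142 over 119, and like Pim2 were not called. Rbck1, a ubiquitin ligase subunit gene beside Trib3 with enough reads to judge, had 270 over 185, or 1.24-fold (0.966 to 1.59).

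Mir6387, a microRNA gene inside Trib2 and 15684 bp from its start, had 315 ChIP and 158 input reads in basal cells and 231 ChIP and 247 input reads in luminal cells. These 4 counts are close to those of Trib2 (302, 146, 232 and 256). Its ratio was 1.69-fold in basal cells (1.31 to 2.19), called higher, and 1.27-fold in luminal cells (1.001 to 1.62), not called. Whether the counted stretches of Mir6387 and Trib2 share reads was not tested.

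Base composition moved with the ratios over all genes. The 17432 compared genes with a promoter window were placed in 5 groups of similar size by G and C content. Trib1 has no window and was not placed. In basal cells the median log2 ratio went from -0.17 in the lowest group (up to 46.5% G and C) to 0.16 in the highest (66.0% and above), and the share called higher from 0.835% to 7.91%. In luminal cells the median went from -0.07 to 0.09 and the share from 0.461% to 2.91%. Pim1, at 65.2% as the mean of its windows, and Pim2, at 62.7%, fall in the 4th group from below, Pim3 and Trib2 in the highest and Trib3 in the middle one. The Pim1 windows themselves, at 81.3% and 49.0%, both lie outside the 59.3% to 65.9% of that group. Its comparison below is thus with genes whose composition neither of its starts has. Set against the median of its own group, Pim1 stood at log2 1.31 in basal and 0.68 in luminal cells, Pim3 at 0.90 and 0.54, and Trib2 at 0.65 and 0.21. Within its group 0.140% of genes had a basal ratio as high as that of Pim1 or higher, and the shares were 1.03% for Pim3, 3.34% for Trib2 and 64.2% for Pim2. Pim3 was no longer called in luminal cells on this scale. The comparison within composition groups was chosen after the data had been seen.

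**Figure D5:**
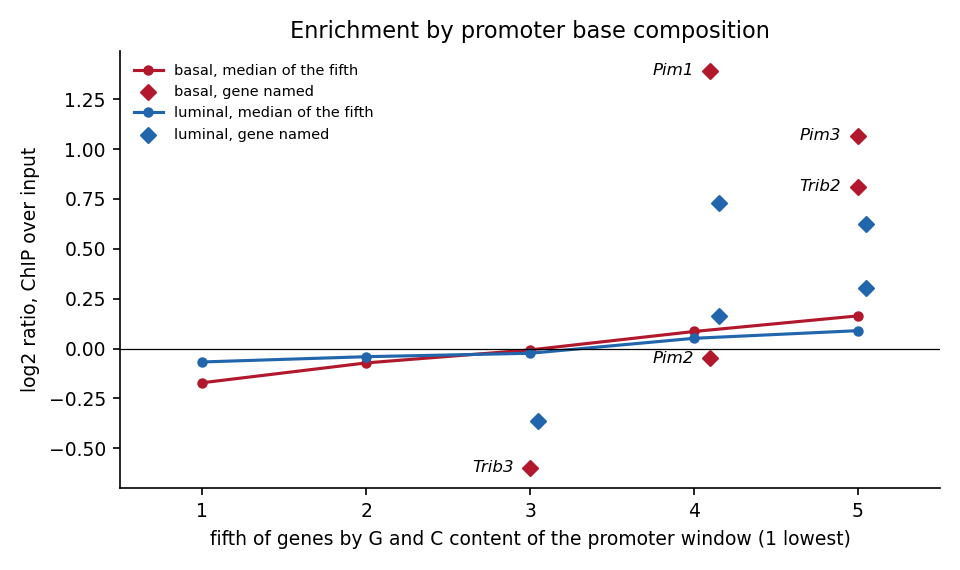
Log2 ratio of ChIP over own input (vertical axis) by group of promoter G and C content (horizontal axis, 1 lowest to 5 highest); lines join the medians of all genes in a group, diamonds are the genes named, red for basal and blue for luminal cells. The basal medians run from -0.17 to 0.16, and Pim1, Pim3 and Trib2 lie above the median of their group while Pim2 lies below it in basal cells. Trib1 has no window and is not drawn, and Pim1 is placed by the mean of its windows.

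In the wider kinase branch the share called higher in basal cells was near the 4.24% of all genes. Of 67 other CAMK group genes compared, 3 were called higher and none lower in basal cells, 4.48% of them, with a median log2 ratio of 0.17. In luminal cells 1 was called higher and 2 lower, with a median of 0.03. These are 1.49% and 2.99% of the list, near the 1.5% and 2.13% of all genes. Sik1, a salt-inducible kinase whose gene responds to cyclic AMP, had 462 reads over 196 in basal cells, 2.001-fold (1.60 to 2.51), and 362 over 322 in luminal cells, 1.53-fold (1.25 to 1.87), called in both. Stk40, a pseudokinase close to the Tribbles family that also binds Cop1, had 423 ChIP and 218 input reads in basal cells and 235 ChIP and 348 input reads in luminal cells. It was called higher in basal cells at 1.65-fold (1.33 to 2.05) and stood at 0.919-fold (0.736 to 1.14) in luminal cells, a difference of log2 0.84 (standard error 0.17) that was called. With both inputs summed its basal ratio was log2 0.58 and not called. Nim1k, an AMPK-related kinase gene, had 269 over 137 in basal cells, log2 0.74. Dclk3, a doublecortin-like kinase gene, and Camk2a, a calcium/calmodulin-dependent kinase gene, were called lower in luminal cells, at log2 -0.95 and -0.71. Together with Stk40, Mark1 and Mylk2 they were the 5 of 67 called higher in the basal-luminal difference, Dclk3 at log2 1.38. That is 7.46% of the 67, beside 3.72% of all genes, and none was called lower, beside 4.16%. Mylk2 was called lower in basal input as well, at 0.665-fold of luminal input (0.483 to 0.908). In all 2 of the 67 (2.99%) were called lower there, beside 0.463% of all genes. Tssk1 and Chek2 were lowest in basal cells at log2 -0.62, each with 10 reads over 13.

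Of 20 cytokine receptor, JAK, STAT and SOCS genes upstream of the Pim kinases 3 (15%) were called higher and none lower in basal cells, beside 4.24% and 4.06% of all genes, with a median log2 ratio of 0.27. Each of the 3 limits or receives cytokine signals, which follows from how the list was built. Socs1, an inhibitor of JAK kinases, stood at log2 0.84 in both cell types and was called in both, with 284 reads over 135 and 223 over 170. Il6ra, the interleukin-6 receptor gene, had 357 over 191 in basal cells (log2 0.67), and Socs3, another feedback inhibitor, 306 over 171 (log2 0.60). Cish was called higher in the basal-luminal difference at log2 0.61 and Prlr, the prolactin receptor gene, lower at -0.62, while Epor was called lower in luminal cells at -0.64. Each of these counts, and that of Socs1 in luminal cells, is 5% of the list. All genes gave 3.72% higher and 4.16% lower in the difference, and 1.5% and 2.13% in luminal cells. Stat5b, which carries prolactin signals, was among the lowest in basal cells at log2 -0.29.

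Of 19 substrates and effectors of Pim kinases 5 (26.3%) were called higher and none lower in basal cells, with a median of 0.36, beside 4.24% and 4.06% of all genes. Myc had 387 reads over 164 (log2 1.002), Foxo3, a forkhead factor, 458 over 199 (0.97), Cdkn1b, a cell cycle inhibitor, 358 over 163 (0.90), Nfatc1 406 over 190 (0.86) and Eif4ebp1, a repressor of translation, 259 over 137 (0.68). In luminal cells 1 of the 19, Foxo3, was called higher at log2 0.76 and 1, Cdkn1a, lower at -0.60. Each is 5.26% of the list, beside 1.5% and 2.13% of all genes. Cdkn1b, Nfatc1 and Myc were called higher in the basal-luminal difference, at 0.87, 0.75 and 0.62, or 15.8% of the list beside 3.72% of all genes. These differences join ChIP and input. In basal over luminal input Myc stood at 0.694-fold (0.538 to 0.890), Cdkn1b at 0.753-fold (0.581 to 0.970) and Nfatc1 at 1.07-fold (0.828 to 1.38). Myc had 387 reads in basal and 308 in luminal ChIP. Tsc2 and Akt1s1, with 10 and 12 reads in basal ChIP, were lowest at log2 -1.31 and -0.56.

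Of 23 partners, targets and inducers of the Tribbles proteins 4 (17.4%) were called higher and none lower in basal cells, with a median of 0.34, beside 4.24% and 4.06% of all genes. The 4 were Foxo3, which the Pim list holds too, Cebpa with 337 reads over 152 (log2 0.91), Cebpb with 142 over 70 (0.78) and Det1, a component of ubiquitin ligases, with 266 over 136 (0.73). In luminal cells Foxo3, Atf4 (log2 0.66) and Cul4a (1.39, on 25 reads over 13) were called higher and Ddit3 (-2.39, on 7 reads over 50) and Mlxipl (-0.63) lower. Map2k1, the kinase MEK1 that Tribbles proteins bind, and Mlxipl and Ddit3 were called higher in the basal-luminal difference, at log2 0.87, 0.78 and 2.97. These luminal and difference counts are each 13.0% of the list for genes called higher, beside 1.5% and 3.72% of all genes. Those called lower in luminal cells are 8.70% of the list, beside 2.13%. Ddit3 had 18 reads in basal and 50 in luminal input and was called lower in basal input as well. Cul4b and Acaca were lowest in basal cells, at -0.53 and -0.22. Foxo3 and Cdc25c count in both the Pim and the Tribbles list, and all these lists were chosen with earlier results of these data known, so their shares are a description.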

How the data were processed

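Each Foxp1 ChIP and input library was sequenced as single reads of 75 to 85 bp. The authors deposited raw counts of reads for every gene, made with featureCounts on build mm10 per the submitters' processing notes. The sources used here do not name the aligner, the versions, the treatment of duplicates or the counted region. Per-sample files and the joint table of 24548 genes hold equal counts. Of its genes, 23128 passed a minimum of 40 counts summed over all libraries. Counts were scaled with TMM factors (edgeR 4.0.16, R 4.3.3). Ratios carry exact Clopper-Pearson 99% intervals. For the ratio of ratios 0.5 was added to all 4 counts and the interval is normal on the log scale. Without replicates no model was fitted and no p-value computed. The code was tested on simulated data. Positions, for 24480 genes, and promoter windows came from RefSeq on GRCm38.p6, the assembly behind mm10. The 6 genes and all lists were chosen with earlier results of these data known. Also named are Stk40, Foxp1, flanking genes, the 3 genes nearest in ratio to Pim1 and to Trib1 and, from each pathway or kinase list, genes called and the 2 lowest in basal cells, and from the marker lists genes called. Alternatives changed the scaling (total counts, DESeq2 1.42.0 size factors, olfactory receptor centring), the background (inputs summed), the count filter (none), the interval (widened by the receptor spread) and the threshold (2-fold). Centring by promoter composition was added after the data had been seen.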

Additional observations from a re-analysis of the deposited data

Results flagged for a closer look

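Pim2 and Stk40 are listed because their single libraries pointed in opposite directions in the cell types, with ChIP below input in one and above it in the other. With 1 library per group the difference was not tested against replicates. For Pim2 the basal minus luminal log2 difference was -0.22, and both of its ratios had intervals that include 1. For Stk40 it was 0.84, called against counting error alone, with ChIP above input in basal cells and an interval that includes 1 in luminal cells.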

How the results depend on the processing

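Of 141 log2 ratios of the 6 genes under alternatives that can move a ratio, 139 stayed within the 95% counting interval of the reported value and no called ratio changed sign. The other 2 were basal minus luminal differences with the inputs summed, those of Pim3 (0.02) and Trib1 (0.34), where 1 of the 6 genes was called higher. At a 2-fold threshold 3 of the 6 were called higher in basal cells, beside 128 of all 23128 genes. In luminal cells 0 of the 6 were, beside 47 of all genes. The difference gave 0 beside 133, and the ChIP libraries alone 0 beside 185. A count of 0 among 6 genes is near these shares of all genes. The receptors' median log2 ratio was -0.21 in basal and -0.07 in luminal cells. Centring on it added Trib2 to the calls in the difference (log2 0.65), and centring by promoter composition removed Pim3 from those in luminal cells (0.54). Over all genes, centring on the receptors gave 2994 higher and 237 lower in basal cells, 571 and 306 in luminal cells and 2043 and 408 in the difference, beside 981 and 939, 347 and 492, and 861 and 963 as reported. Total-count scaling gave 698 higher and 1311 lower in basal and 268 and 604 in luminal cells. The widened interval gave 243 lower in basal and 124 lower in luminal cells, and 205 higher and 128 lower in the difference. The 2-fold threshold gave 128 and 222 in basal cells, 47 and 132 in luminal cells, 133 and 239 in the difference, 16 and 21 between inputs and 185 and 272 between ChIP libraries. Centring by composition, which leaves out genes with no window, Trib1 among them, gave 582 higher and 606 lower in basal and 226 higher in luminal cells. The cause of these shifts was not tested. No paired analysis was possible because each group had 1 library. The 12 to 21 reads of Trib3 limit what can be seen there.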
